A study of Mus musculus with 6 samples.

Results

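Of 66 axon guidance receptors and ligands measured, 15 were higher in Pax7-GFP cells than in undifferentiated mouse embryonic stem (ES) cells, or 22.7% against 7.34% of all genes, 7 were lower, or 10.6% against 7.15% of all genes, and 44 were not called. The semaphorin receptors Plxna2 and Plxnd1 and the semaphorin Sema6a rose most, by 48.1-fold, 11.7-fold and 11.0-fold. Epha2, Epha4, Sema4b, Ntn1, Nrp2, Unc5b and Efna4 fell, by 2.23-fold to 4.90-fold, and Epha3, Sema4c, Ntn4, Nrp1 and Efna5, from families that also hold a fall, rose. The share of falls is near that of all genes, and all families but the semaphorins, which have 8, hold at most 3 called genes. Membership was set by gene name, for families picked with earlier results of these data known. A gene was a member when its symbol on the array belonged to the Eph receptors of class A or B, ephrins, semaphorins of classes 3 to 7, plexins, neuropilins, Slits, Robos, netrins or Unc5 receptors. This gave 66 of the 22180 genes measured, on 69 probe sets.

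Guidance cues are secreted or membrane-bound proteins that attract or repel the leading edge of growing axons and of migrating cells. Semaphorins signal through plexins, the class 3 ones mostly with a neuropilin as co-receptor. Ephrins bind Eph receptor tyrosine kinases on neighbouring cells, Slits bind Robos, and netrins bind Dcc, neogenin and the Unc5 receptors. In the embryo, muscle precursors migrate from the somites under cues of the same families, and Eph and ephrin signals are known to position them in the chick limb.

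The Pax7-GFP samples (n = 3) were cells of a mouse ES cell line with a green fluorescent reporter (GFP) of Pax7, which marks satellite cells and the muscle progenitors they come from, sorted after 3 weeks of myogenic differentiation with gates set on undifferentiated cultures. The ES samples (n = 3) were undifferentiated, pluripotent mouse ES cells. The strain, clone and reporter construct are not given in the labels, nor whether both groups came from 1 line or whether the ES cells passed the sorter. Total RNA of each sample went through 2 rounds of amplification, was labelled with biotin and was hybridised to 1 single-colour array. The replicates are called biological, but nothing says how cultures were kept apart, so the p-values rest on the spread of these samples, which may be technical.

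Values are log2 signals deposited after robust multi-array averaging (RMA), and differences are Pax7-GFP minus ES with the standard error (SE) of the limma fit. Calls required a Benjamini-Hochberg adjusted p under 0.05, over all 22180 genes, together with a difference of at least 2-fold, or 1 on the log2 scale. "Rose" and "fell" are used of called genes. Probe sets differ in how brightly they bind, so levels are compared between groups and not between genes. The labelled cell types showed their markers. Pax7, the gene of the reporter, stood at 10.90 ± 0.25 in Pax7-GFP and 5.70 ± 0.073 in ES arrays, and the pluripotency factor Nanog at 5.13 ± 0.15 in Pax7-GFP and 12.02 ± 0.072 in ES arrays (SD, n = 3 each). All 8 muscle progenitor genes checked were higher and all 8 pluripotency genes lower. Arrays correlated at r = 0.987 to 0.993 within the Pax7-GFP group and 0.997 within the ES group, against 0.895 to 0.905 between groups (across 22180 genes, which are not independent replicates). Each array measured RNA pooled over many cells, so fewer expressing cells and less RNA per cell cannot be told apart in the results.

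Beside the 15 members called higher and the 7 called lower, a further 24 passed the adjusted p with a difference under 2-fold. These 24 were 36.4% of the members, against 26.7% of all genes. Thus 46 of 66 passed the p threshold whatever the fold, against 9126 of all 22180 genes, or 41.1%. The remaining 20 passed neither. Signals of the groups did not overlap in 47 of 66 members and in 11502 of all 22180 genes. The median log2 fold change was 0.32 over the members and 0.024 over all genes, and the median size of the difference, whatever its sign, was 0.68 over the members and 0.23 over all genes. Members were less often dim: 13.6% of them had both group means under the table's median of 5.64, against 38.8% of all genes. These dim members were Epha5, Epha6, Epha8, Sema3d, Sema3e, Plxnb3, Robo2, Robo3 and Unc5d. Among the 53 members whose mean over the 6 arrays reached that median, 26.4% were called higher, against 11.7% of the 12995 such genes, and 13.2% lower, against 11.3%. A gene can reach that mean through only the group where it is high, as Plxna2 did with an ES mean of 5.52. These shares therefore depend partly on the difference itself. Without single arrays, 14 to 18 members were called higher and 7 or 8 lower.

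**Figure D1:**
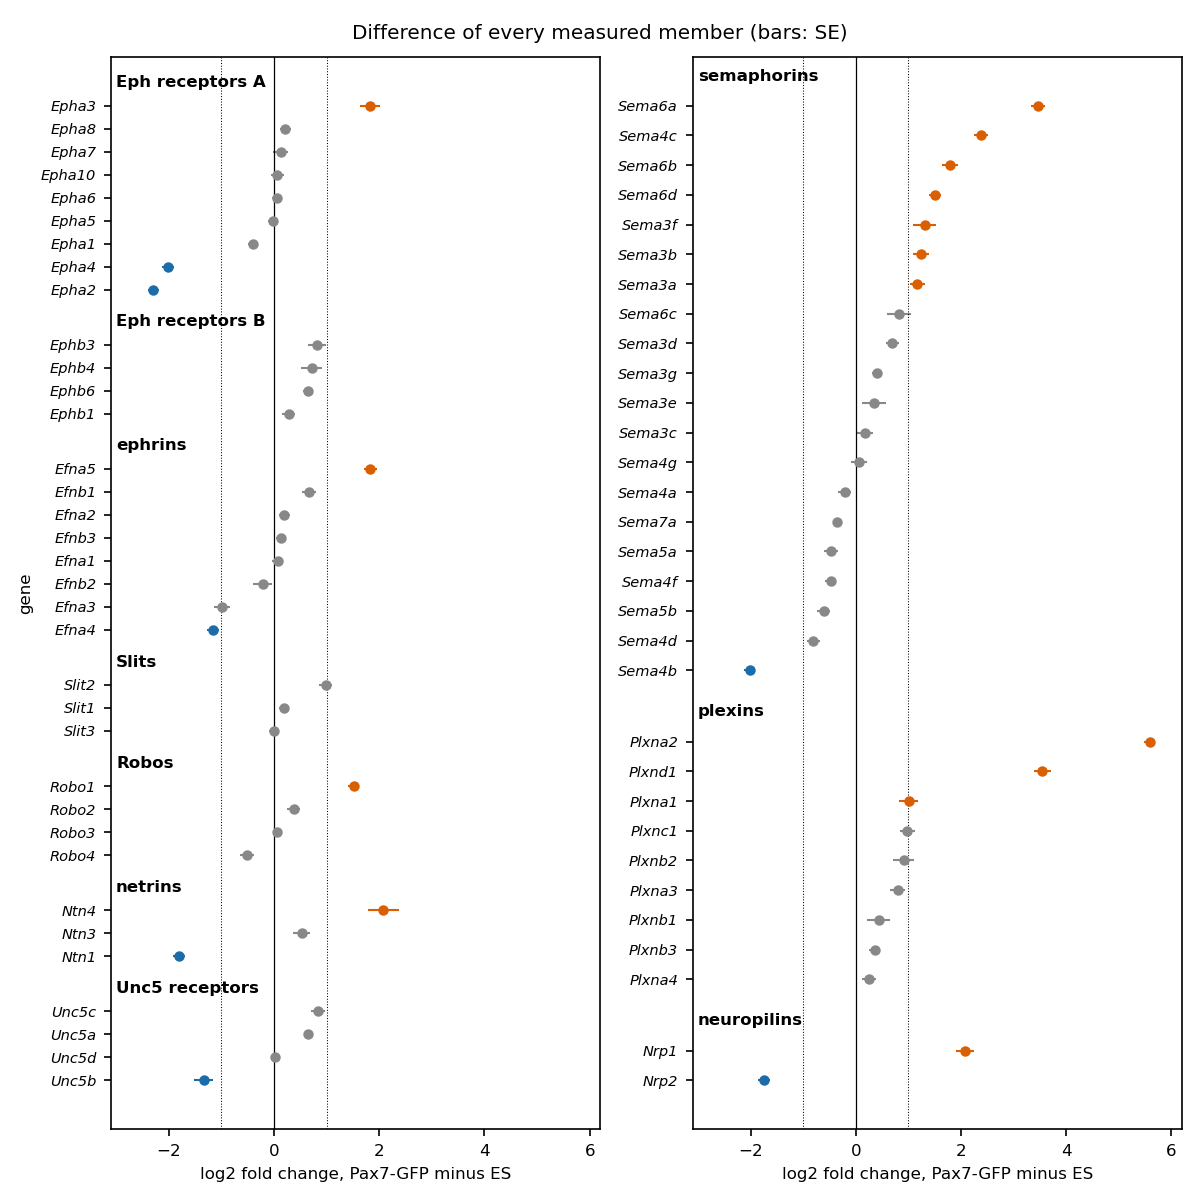
Log2 fold change, Pax7-GFP minus ES (horizontal axis), of all 66 members by family, with bars of 1 SE; orange points were called higher, blue points lower and grey points were not called, and dotted lines mark a 2-fold difference. Plxna2 stands farthest right at 5.59 and Epha2 farthest left at -2.29, and the Eph receptors A, ephrins, semaphorins, neuropilins and netrins each hold points of both colours.

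**Figure D2:**
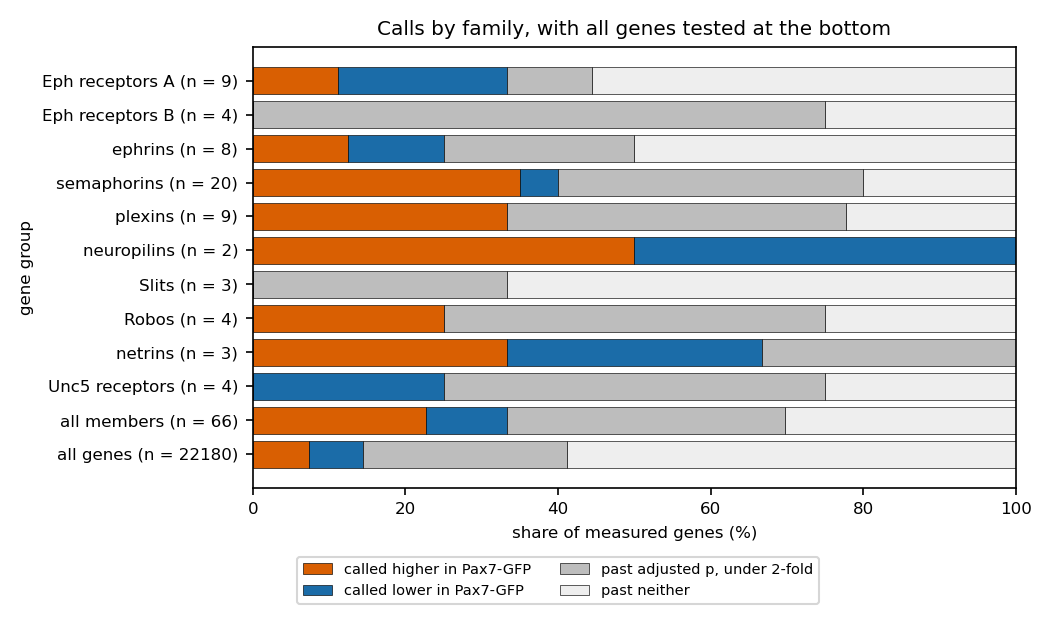
Share of measured genes (%, horizontal axis) in each family that were called higher, called lower, past the adjusted p with a difference under 2-fold, or past neither. The bottom bars give all 66 members and all 22180 genes; 22.7% of members against 7.34% of all genes were called higher.

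The following sequences are the RefSeq promoter windows (GRCm38.p6, 300 bases around the annotated start, read 5′ to 3′ on the gene's strand) of Plxna2 and Plxnd1, the largest rises, and Epha2 and Epha4, the largest falls. They are printed because these 4 genes carry the extremes of the comparison, and capitals mark CG dinucleotides. The array files name no genome build, so the positions are those of the RefSeq table.
Plxna2 (chr1:194619579-194619878, + strand): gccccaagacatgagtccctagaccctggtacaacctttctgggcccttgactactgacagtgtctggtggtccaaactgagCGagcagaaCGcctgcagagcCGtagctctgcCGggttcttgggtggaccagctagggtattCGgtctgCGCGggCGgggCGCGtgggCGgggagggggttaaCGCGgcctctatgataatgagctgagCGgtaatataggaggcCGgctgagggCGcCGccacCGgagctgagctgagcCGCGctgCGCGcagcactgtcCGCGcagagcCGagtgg
Plxnd1 (chr6:115994956-115995255, - strand): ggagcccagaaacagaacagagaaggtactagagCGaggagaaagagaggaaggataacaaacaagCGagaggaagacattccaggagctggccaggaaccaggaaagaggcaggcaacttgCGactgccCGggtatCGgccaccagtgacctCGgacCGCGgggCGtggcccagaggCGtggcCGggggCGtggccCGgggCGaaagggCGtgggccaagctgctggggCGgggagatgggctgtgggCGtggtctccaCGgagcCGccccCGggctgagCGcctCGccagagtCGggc
Epha2 (chr4:141300971-141301270, + strand): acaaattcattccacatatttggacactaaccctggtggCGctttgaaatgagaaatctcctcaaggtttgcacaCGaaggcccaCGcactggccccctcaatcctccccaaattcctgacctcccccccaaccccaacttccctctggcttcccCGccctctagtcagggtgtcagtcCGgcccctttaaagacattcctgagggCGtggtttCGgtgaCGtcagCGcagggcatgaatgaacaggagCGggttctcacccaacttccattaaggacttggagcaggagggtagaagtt
Epha4 (chr1:77515039-77515338, - strand): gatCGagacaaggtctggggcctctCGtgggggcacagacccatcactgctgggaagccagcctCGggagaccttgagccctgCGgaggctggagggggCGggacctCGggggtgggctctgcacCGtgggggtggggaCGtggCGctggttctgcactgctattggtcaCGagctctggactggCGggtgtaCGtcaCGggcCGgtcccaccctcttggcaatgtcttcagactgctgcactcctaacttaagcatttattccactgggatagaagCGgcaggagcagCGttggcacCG

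These windows held 25, 23, 10 and 17 CG dinucleotides. Windows were found for 57 of the 66 members, 1 per gene, the most upstream where several were listed. Their median was 22 CG dinucleotides and a GC content of 64.7%, against 13 and 56.3% over the 16918 genes on the array with a window. The letters CANNTG, the E-box that myogenic bHLH factors such as Myod1 can bind (the same on both strands), stood in 4 of 11 windows of members called higher, 1 of 6 of members called lower and 22 of 40 of members not called. Over all genes with a window on the array the share was 68.9%. CAGCTG, a subset of those matches, stood in 0 of 11, 0 of 6 and 9 of 40 windows, against 15.8% of all. None of the 4 windows shown holds CANNTG. These are letter matches in short windows and say nothing about binding elsewhere.

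Semaphorins, the cues of the plexins, had 7 of 20 measured genes higher, or 35%, and 1 lower, or 5%. The other 12 were not called, and 8 of these, or 40% of the family, passed the adjusted p alone. All genes gave 7.34% higher, 7.15% lower and 26.7% past the adjusted p alone. Class 6, which is membrane-bound and binds class A plexins, had 3 of 4 genes higher. Sema6a gave signals of 9.81, 9.51 and 9.84 in Pax7-GFP arrays, against 6.02, 6.32 and 6.42 in ES arrays. It rose by 3.47 on the log2 scale (SE 0.13, limma adjusted p = 3.52e-07), and the 3 Pax7-GFP arrays lay far above the 3 ES arrays. Sema6b and Sema6d rose by 1.79 (SE 0.16) and 1.51 (SE 0.12). The remaining gene of the class, Sema6c, stood at 0.82 (SE 0.22), under the 2-fold minimum. Without Pax7-GFP replicate 2, whose Sema6c signal of 6.77 was the lowest of its group, Sema6c was called as well.

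Class 4, also membrane-bound, held the largest fall among semaphorins beside a rise. Sema4c, a ligand of plexin-B2, had signals of 8.36, 7.82 and 8.21 in Pax7-GFP arrays, against 5.73, 5.76 and 5.73 in ES arrays. The rise was 2.39 (SE 0.13, limma adjusted p = 2.84e-06), and the ES values differed from one another by less than 0.1. Sema4b ran the other way, with 6.89, 6.58 and 6.77 in Pax7-GFP arrays and 8.67, 8.82 and 8.81 in ES arrays, and fell by 2.02 (SE 0.10, limma adjusted p = 1.65e-06). The groups were apart for both genes. Sema4d, the ligand of plexin-B1, stood at -0.80 and Sema4f at -0.48, both past the adjusted p and under 2-fold, and Sema4a and Sema4g stood at -0.21 and 0.065 and passed neither threshold.

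Secreted class 3 semaphorins had 3 of 7 genes higher and 0 lower, against 7.34% and 7.15% of all genes, with modest sizes. Sema3f, Sema3b and Sema3a rose by 1.31 (SE 0.22), 1.24 (SE 0.16) and 1.17 (SE 0.14). Sema3a, known as a repellent of sensory and motor axons that satellite cells secrete in regenerating muscle, gave 6.09, 5.73 and 6.26 in Pax7-GFP arrays, against 4.74, 4.88 and 4.94 in ES arrays. Its mean over the 6 arrays lay under the table's median, so it was not tested among the brighter genes. A limma test against a 2-fold difference, in place of a 2-fold minimum, called none of these 3, nor Plxna1, Efna4 or Unc5b below. Sema3b and Sema3f lie on chromosome 9 with 3 coding genes between them. Sema3d, next to Sema3a in the gene order of chromosome 5, stood at 0.70 (SE 0.12) and Sema3e, 3 coding genes from Sema3a, at 0.35 (95% interval -0.17 to 0.88). Sema3d and Sema3e were dim, with both group means under the table's median. The other class 3 genes, Sema3g and Sema3c, stood at 0.40 (SE 0.094), past the adjusted p, and 0.18 (SE 0.16), past neither threshold. Of the other classes, Sema5a, Sema5b and the GPI-anchored Sema7a stood at -0.47, -0.61 and -0.36, each past the adjusted p and under 2-fold.

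Plexins, the receptors, had the highest median difference of the families with more than 4 genes, 0.91 on the log2 scale, and 0 of 9 had a negative difference. Of the 9, 3 were called higher, or 33.3% against 7.34% of all genes, 4 passed the adjusted p alone and 2 passed neither threshold. Plxna2, a receptor of Sema6a in the developing nervous system, was measured by probe set 17220974. Its signals were 10.98, 11.10 and 11.25 in Pax7-GFP arrays, against 5.52, 5.66 and 5.39 in ES arrays. The difference of 5.59 (SE 0.11, limma adjusted p = 1.87e-08) was the 8th largest rise of the 22180 genes. Replicates lay within 0.3 of each other in both groups, so the difference was many times their spread.

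Plxnd1, the receptor that Sema3e binds without a neuropilin and that patterns blood vessels, was the 118th largest rise. It gave 9.40, 8.76 and 9.22 in Pax7-GFP arrays, against 5.68, 5.54 and 5.52 in ES arrays, a difference of 3.55 on the log2 scale (SE 0.16, limma adjusted p = 7.01e-07). Sema3e itself, given above, was not called. Plxna1, another class A plexin, was bright in both groups, at 10.54, 10.67 and 11.24 in Pax7-GFP arrays and 9.66, 9.86 and 9.91 in ES arrays. Its rise of 1.005 (SE 0.18, limma adjusted p = 0.00197) sits on the 2-fold minimum. Plxna1 stood at 0.79 without Pax7-GFP replicate 3, at 0.93 without ES replicate 1, at 0.98 with arrays centred on their medians and at 0.70 as the mean of its probe sets, and was not called in these cases. Its dimmer probe set differed by 0.40.

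The other 6 plexins were not called. Plxnc1 stood at 0.98 (SE 0.14), Plxnb2 at 0.91 (SE 0.21) and Plxna3 at 0.80 (SE 0.14), all past the adjusted p alone. Plxnb2, the receptor of Sema4c, was bright in both groups, with 10.17, 9.53 and 9.31 in Pax7-GFP arrays and 8.59, 8.78 and 8.91 in ES arrays, which do not overlap. It was called without Pax7-GFP replicate 3, at 1.09, and Plxnc1, the receptor of Sema7a, without Pax7-GFP replicate 2 or 3 or without ES replicate 3. Plxnb1 stood at 0.43 with a wide 95% interval of -0.076 to 0.94, and its other probe set at -0.017. Plxnb3, at 0.36, passed the adjusted p, though both its group means lay under the table's median, and Plxna4, at 0.24, did not pass.

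Neuropilins, co-receptors that lend class 3 semaphorins their binding, split. Nrp1, which binds Sema3a and vascular endothelial growth factor, gave 7.36, 7.76 and 7.75 in Pax7-GFP arrays, against 5.22, 5.71 and 5.71 in ES arrays. Nrp2, which binds Sema3f, gave 5.85, 5.70 and 5.95 in Pax7-GFP arrays, against 7.41, 7.75 and 7.54 in ES arrays. Nrp1 rose by 2.08 (SE 0.16, limma adjusted p = 1.99e-05) and Nrp2 fell by 1.74 (SE 0.11, limma adjusted p = 6.89e-06). The groups did not overlap in either gene, as was also so in 11502 of all 22180 genes.

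**Figure D3:**
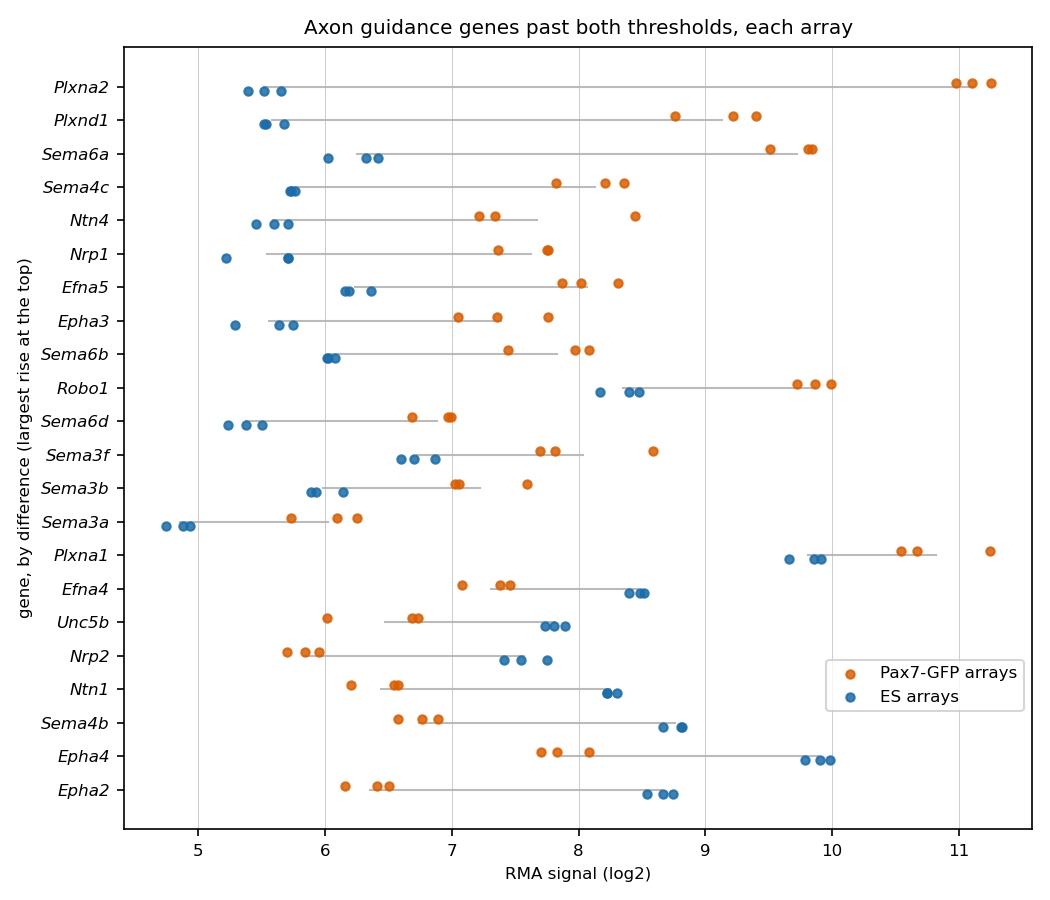
RMA signal (log2, horizontal axis) on each array of the 22 members past both thresholds; orange points are the 3 Pax7-GFP arrays, blue points the 3 ES arrays and grey lines join the group means. Plxna2 lies between 10.98 and 11.25 in Pax7-GFP arrays and under 5.7 in ES arrays, and Ntn4 has the widest scatter among Pax7-GFP arrays.

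Ephrins, the membrane-bound cues of the Eph receptors, had 1 of 8 genes higher, 1 lower and 6 not called. Each direction is 12.5%, from 1 gene, against 7.34% higher and 7.15% lower over all genes. Efna5, a GPI-anchored ephrin, rose, with 8.31, 7.87 and 8.02 in Pax7-GFP arrays, against 6.16, 6.19 and 6.36 in ES arrays. The rise was 1.83 (SE 0.13, limma adjusted p = 9.05e-06). Efna4 fell by 1.16 (SE 0.11, limma adjusted p = 6.11e-05), with 7.46, 7.08 and 7.38 in Pax7-GFP arrays, against 8.40, 8.51 and 8.49 in ES arrays. Its neighbour on chromosome 3, Efna3, stood at -0.99 (SE 0.15), the member nearest to the 2-fold minimum on the lower side. It was called lower with arrays centred on their medians, with array weights, and without Pax7-GFP replicate 1 or 2 or ES replicate 2, at -1.01 to -1.14. Efna1, next to Efna3 in the gene order, stood at 0.068 (95% interval -0.16 to 0.30), and Efna2, on chromosome 10, at 0.19 (95% interval -0.051 to 0.43). The transmembrane ephrins Efnb1, Efnb2 and Efnb3 stood at 0.67, -0.21 and 0.14, and of these Efnb1 passed the adjusted p.

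Eph receptors of class A, which bind mainly the GPI-anchored ephrins, had 1 of 9 genes higher, 2 lower and 6 not called. These are 11.1% higher and 22.2% lower, against 7.34% and 7.15% of all genes. Epha2 and Epha4 held the largest and the second largest fall of all 66 members. Epha2 gave 6.50, 6.16 and 6.41 in Pax7-GFP arrays, against 8.54, 8.75 and 8.67 in ES arrays, and fell by 2.29 (SE 0.11, limma adjusted p = 1.13e-06). Epha4, a receptor that guides motor axons and also binds ephrins of class B, gave 8.08, 7.71 and 7.83 in Pax7-GFP arrays, against 9.78, 9.90 and 9.99 in ES arrays, and fell by 2.02 (SE 0.11, limma adjusted p = 2.97e-06). For both genes every Pax7-GFP array lay at least 1.5 below every ES array. Epha3, a receptor of Efna5, ran the other way, with 7.76, 7.05 and 7.35 in Pax7-GFP arrays and 5.64, 5.29 and 5.75 in ES arrays, a rise of 1.83 (SE 0.19, limma adjusted p = 9.66e-05).

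Epha1 stood at -0.39 (SE 0.097), past the adjusted p alone. Epha5, Epha6, Epha7, Epha8 and Epha10 lay between -0.026 and 0.21 and passed neither threshold. Epha5, Epha6 and Epha8 had both group means under the table's median, and without detection calls they cannot be called absent.

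None of the 4 class B Eph receptors measured was called, though 3 passed the adjusted p with positive differences. Over all genes, 26.7% passed it with a difference under 2-fold of either sign. Ephb3 gave 8.71, 7.98 and 8.13 in Pax7-GFP arrays, against 7.47, 7.41 and 7.49 in ES arrays, a difference of 0.82 (SE 0.17, limma adjusted p = 0.00534). Ephb4, the receptor of Efnb2 in the vein wall, gave 8.69, 7.81 and 8.41 in Pax7-GFP arrays, against 7.52, 7.63 and 7.61 in ES arrays, a difference of 0.72 (SE 0.20). Ephb4 did not pass without Pax7-GFP replicate 3 (limma adjusted p = 0.060), nor without any single ES array (limma adjusted p = 0.054 to 0.067). With signals under 5 set to 5 it did not pass either (limma adjusted p = 0.0999). In both Ephb3 and Ephb4, Pax7-GFP replicate 1 was the highest and replicate 2 the lowest of their group. The kinase-dead Ephb6 had 6.64, 6.68 and 6.88 in Pax7-GFP arrays and 6.06, 6.04 and 6.17 in ES arrays, or 0.65 (SE 0.094), with little spread. Ephb1 gave 5.60, 5.95 and 5.96 in Pax7-GFP arrays, against 5.69, 5.42 and 5.54 in ES arrays, which overlap (95% interval of the difference -0.0033 to 0.57).

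Slits had 0 of 3 genes called, and their receptors, the Robos, 1 of 4 higher, against 7.34% of all genes. Slit2, a repellent of commissural axons, gave 8.63, 8.26 and 8.28 in Pax7-GFP arrays, against 7.27, 7.50 and 7.43 in ES arrays. The groups do not overlap, but the difference of 0.99 (SE 0.12, limma adjusted p = 0.000261) fell just short of 2-fold, the nearest on the higher side of the members not called. Slit2 was called after a second quantile normalization and without Pax7-GFP replicate 2 or 3 or ES replicate 2 or 3, at 1.002 to 1.05. Slit1 gave 5.96, 5.93 and 5.92 in Pax7-GFP arrays and 5.84, 5.63 and 5.78 in ES arrays, and Slit3 gave 6.61, 6.90 and 6.83 in Pax7-GFP arrays and 6.76, 6.82 and 6.76 in ES arrays. Neither passed the adjusted p, with 95% intervals of the difference of -0.012 to 0.38 and -0.22 to 0.22.

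Robo1 rose by 1.51 (SE 0.11, limma adjusted p = 1.33e-05). Its signals were 9.99, 9.72 and 9.87 in Pax7-GFP arrays, against 8.17, 8.40 and 8.47 in ES arrays, and all 3 Pax7-GFP arrays exceeded all 3 ES arrays by more than 1. Robo2, its neighbour on chromosome 16, gave 5.15, 4.72 and 5.07 in Pax7-GFP arrays and 4.59, 4.63 and 4.60 in ES arrays, all under the table's median of 5.64, with a difference of 0.37 (SE 0.12). With signals under 5 set to 5, the Robo2 difference was 0.074 (limma adjusted p = 0.29). Robo3, which lets commissural axons cross the midline, gave 4.41, 4.62 and 4.58 in Pax7-GFP arrays and 4.47, 4.44 and 4.51 in ES arrays, and these overlap. Robo4, known from blood vessels, gave 5.40, 5.35 and 4.94 in Pax7-GFP arrays, against 5.80, 5.60 and 5.83 in ES arrays, a difference of -0.52 (SE 0.14, limma adjusted p = 0.0151), under 2-fold.

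Netrins had 1 of 3 genes higher and 1 lower, against 7.34% and 7.15% of all genes. Ntn1, the classical attractant of commissural axons, gave 6.21, 6.58 and 6.55 in Pax7-GFP arrays, against 8.23, 8.22 and 8.30 in ES arrays, and fell by 1.81 (SE 0.11, limma adjusted p = 5.03e-06). Ntn4, a netrin of basement membranes that binds laminin, gave 8.45, 7.22 and 7.34 in Pax7-GFP arrays, against 5.71, 5.46 and 5.60 in ES arrays. It rose by 2.08 (SE 0.29, limma adjusted p = 0.000523), and Pax7-GFP replicate 1 lay more than 1 above the other Pax7-GFP arrays. Without that array the rise was 1.69 and still called. Ntn3 gave 6.46, 6.34 and 5.82 in Pax7-GFP arrays and 5.67, 5.77 and 5.60 in ES arrays, or 0.53 (SE 0.16), past the adjusted p alone. It did not pass without Pax7-GFP replicate 1 or 2 or without any single ES array (limma adjusted p = 0.060 to 0.10). Another 2 probe sets carry a netrin symbol together with the symbol of another gene and were left out for that reason. One gave 8.76, 8.19 and 8.54 in Pax7-GFP arrays, against 6.14, 5.97 and 5.94 in ES arrays, and the other gave 6.75, 6.48 and 6.53 in Pax7-GFP arrays, against 6.78, 6.52 and 6.70 in ES arrays. They disagree, and the gene behind either signal cannot be told.

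The Unc5 receptors, which turn netrin from attraction to repulsion, had 1 of 4 genes lower and 0 higher, against 7.15% and 7.34% of all genes. Unc5b gave 6.01, 6.74 and 6.69 in Pax7-GFP arrays, against 7.74, 7.81 and 7.89 in ES arrays, and fell by 1.34 (SE 0.18, limma adjusted p = 0.000468). Its Pax7-GFP replicate 1 was the lowest array, yet all 3 stood below the ES range. Unc5c and Unc5a had differences of the other sign, under 2-fold and past the adjusted p. Unc5c gave 6.74, 6.55 and 6.26 in Pax7-GFP arrays, against 5.73, 5.68 and 5.63 in ES arrays (0.84, SE 0.13). Unc5a gave 6.19, 6.26 and 6.30 in Pax7-GFP arrays, against 5.55, 5.60 and 5.64 in ES arrays (0.65, SE 0.078). Unc5d, at 5.53, 5.63 and 5.43 in Pax7-GFP arrays and 5.56, 5.51 and 5.44 in ES arrays, overlapped between the groups (95% interval of the difference -0.17 to 0.23).

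Of 32 receptors, 6 were higher, or 18.8%, and 4 were lower, or 12.5%. Of 34 ligands, 9 were higher, or 26.5%, and 3 were lower, or 8.82%. Over all genes these shares were 7.34% and 7.15%, and the difference between receptors and ligands was not tested.

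Genes known to work with these families, a list of co-receptors, other cues and transducers, were measured for 66 of 73 names. Of these 66, 19 were higher, or 28.8%, 2 were lower, or 3.03%, and 45 were not called, 22 of them past the adjusted p alone, with a median of 0.43. The shares over all genes were 7.34% higher, 7.15% lower and 26.7% past the adjusted p alone, the last against 33.3% of the list. The list, which was drawn up with earlier results known, held few dim genes. Among its 58 genes whose mean over the 6 arrays reached the table's median, 31.0% were higher and 3.45% lower, against 11.7% and 11.3% of all such genes. This filter, too, can be passed through only the group where a gene is high. Rgmb, a ligand of the netrin receptor neogenin and a co-receptor of bone morphogenetic proteins, gave 9.22, 8.73 and 9.26 in Pax7-GFP arrays, against 6.23, 6.34 and 6.24 in ES arrays, the largest rise of the list at 2.80 (SE 0.14, limma adjusted p = 1.71e-06). Dpysl2, the collapsin response mediator that carries Sema3a signals to microtubules, rose by 2.61 (SE 0.19). Farp1, which works with class A plexins, rose by 2.41 (SE 0.15), and Gpc1, a heparan sulphate proteoglycan that binds Slit, by 2.37 (SE 0.11).

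The called falls were those of Crmp1, a relative of Dpysl2, by 1.16 (SE 0.11), and the kinase Src, by 1.01 (SE 0.14). Neither was called by the limma test against a 2-fold difference. Src lay on the 2-fold minimum and was not called without Pax7-GFP replicate 3, at -0.86, without ES replicate 2 or 3, at -0.99 and -0.99, or after a second quantile normalization, at -0.98. The limma adjusted p of these 6 named genes ranged from 1.07e-06 to 0.000502. The netrin receptors outside the Unc5 family were not called. Neo1, which encodes neogenin, had signals of 9.95, 9.56 and 9.63 in Pax7-GFP arrays and 9.44, 9.57 and 9.64 in ES arrays, and Dcc had 4.73, 4.83 and 4.96 in Pax7-GFP arrays and 4.84, 4.76 and 4.65 in ES arrays. The groups overlap in both genes. Neo1 and Dcc were named after their values were seen.

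**Figure D4:**
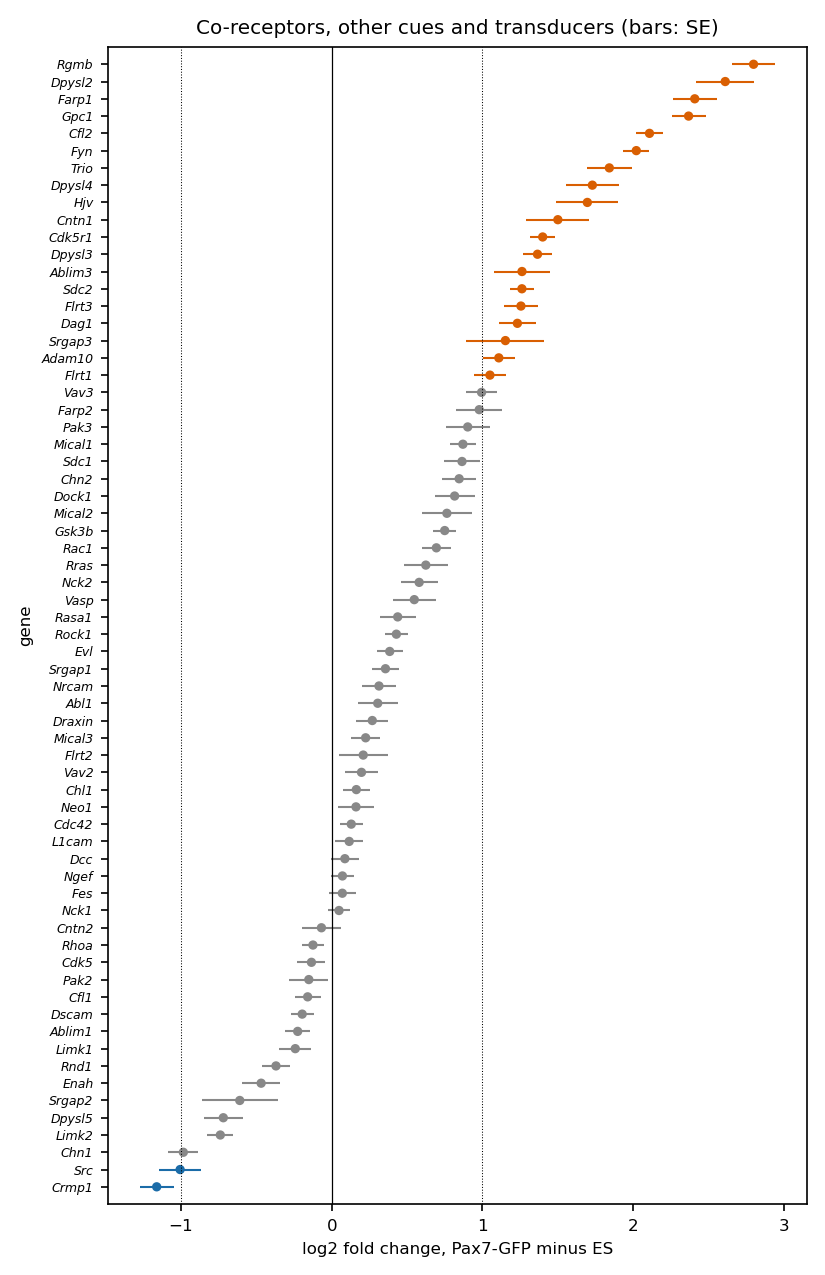
Log2 fold change, Pax7-GFP minus ES (horizontal axis), of the 66 measured genes of the list of co-receptors, other cues and transducers, with bars of 1 SE; orange points were called higher, blue points lower and grey points were not called, and dotted lines mark a 2-fold difference. Rgmb leads at 2.80, and the 2 called falls, Src and Crmp1, stand at -1.01 and -1.16.

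Many members are known from neurons, vessels and fibroblasts, and markers of those cells were read beside them. Neuron markers had 4 of 12 lower, Stmn2 at -5.51, Nefl at -4.85, Tubb3 at -4.30 and Nefm at -2.57. In that order the 4 averaged 10.95, 9.31, 9.33 and 7.43 in the undifferentiated ES arrays. Their Pax7-GFP means were 5.44, 4.47, 5.04 and 4.86, so these falls start from signal in the ES samples. Another 2 markers were higher, Dcx at 1.51 and Map2 at 1.46, and 6 were not called. The mean log2 signal of the 12 was 5.52 to 5.63 in Pax7-GFP arrays, against 6.74 in ES arrays. Endothelial markers had 1 of 11 higher, Cdh5 at 1.41, and 2 lower, Pecam1 at -2.43 and Egfl7 at -1.05, with mean signals of 5.49 to 5.61 in Pax7-GFP and 5.72 to 5.76 in ES arrays. Pecam1 averaged 8.40 in ES arrays and 5.97 in Pax7-GFP arrays. Fibroblast markers had 6 of 10 higher and 1 lower, with mean signals of 8.07 to 8.49 in Pax7-GFP and 6.67 to 6.95 in ES arrays. The rises were those of Fap at 4.29, Dcn at 3.03, Col3a1 at 2.53, Col1a2 at 2.03, Pdgfra at 1.48 and Postn at 1.09. The fall was that of Mfap5 at -1.82. Glial and neural crest markers had 1 of 9 higher and 2 lower, with mean signals of 6.46 to 6.57 in Pax7-GFP and 6.67 to 6.71 in ES arrays. Blood markers had 0 of 6 higher and 2 lower, with 5.59 to 5.78 in Pax7-GFP and 6.35 to 6.42 in ES arrays. Over all genes, 7.34% were called higher and 7.15% lower. The endothelial list had 9.09% higher and 18.2% lower, and the glial and neural crest list 11.1% and 22.2%, from 1 or 2 genes each. RMA signals have no zero, so no marker can be called absent. The part of such cells in the members' differences was not tested.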

How the data were processed

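The authors deposited log2 RMA signals, 1 per probe set and array, made with RMA in R 2.12.1 per the submitters' processing notes. For the RMA options, the probe set definition and the genome build, nothing was given in the sources used here. The table held 41345 rows with array medians of 5.61 to 5.69, and values were used as deposited. No detection calls were used. The number of arrays, 3 per group, limits the precision. Probe sets were named through the platform annotation of 2022 (23521 rows with 1 symbol, 1814 with several, which were left out). Each of 22180 genes was represented by its probe set with the highest mean over 6 arrays. All 66 member IDs were found in RefSeq (GRCm38.p6) and 0 symbols changed.

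Groups came from the sample titles. Pax7-GFP was compared with ES across all genes with limma 3.58.1 in R 4.3.3 (lmFit, eBayes, two-sided, Benjamini-Hochberg adjustment, no covariate). The fit was also run on simulated data with the same spread in both groups, unlike these arrays. That run checks the working of the fit and not the calls made here. An exact permutation test of 3 against 3 cannot go below 0.1 and was not used. The members and lists were chosen with earlier results of these data known. Named were all called members, members of families of up to 4 genes, members not called with a group mean of at least 9, the nearest to 2-fold on each side, the 4 largest called rises of the pathway list and its called falls. Remaining members are given to account for each family, and Neo1, Dcc and single marker genes were picked with their values in view. Alternatives changed the scaling, floor, dim filter, probe set rule, fold minimum, variance prior, array weights, replicate block and arrays included.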

Additional observations from a re-analysis of the deposited data

How the results depend on the processing

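Changing the scaling, the signal floor, the filter on dim genes, the mean of probe sets, the variance prior or the array weights left 14 to 16 members higher, 7 or 8 lower, and 2984 to 3223 genes called over all. Without single arrays, 14 to 18 members were higher and 7 or 8 lower. Call rules of another strictness changed the counts. With the adjusted p alone and no minimum fold, 9126 genes, 31 higher and 15 lower members and 43 pathway genes passed. At 4-fold these were 1010, 6, 3 and 6, and in the limma test against 2-fold 1713 genes, 11 higher and 5 lower members and 10 pathway genes. Testing each probe set left the members' counts at 15 and 7. Differences near 0 changed sign: Slit3 stood at 0.026 with array weights and between -0.062 and 0.082 without single arrays, and Unc5d between -0.025 and 0.079 without single arrays. Same-numbered arrays did not deviate together (correlations -0.11, -0.22 and 0.0069). With 3 arrays per group this cannot show whether the replicate numbers pair samples. With the replicate block 15 members were higher and 7 lower, and 3213 genes were called. The groups held 3 arrays each, which limits the precision.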

Other observations

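Among Pax7-GFP arrays, replicate 1 was often the highest and replicate 2 often the lowest, in members called higher and in those called lower. Replicate 1 was the highest Pax7-GFP array in 10 of the 15 members called higher, in 4 of the 7 called lower and in 34 of all 66. It was the highest in 7502 of all 22180 genes, and the lowest in 19 of the 66 members. Replicate 2 was the lowest in 10 of 15, 5 of 7 and 26 of 66. It was the lowest in 6909 of all 22180 genes, and the highest in 18 of the 66 members. The median deviations of replicates 1 and 2 from the group mean were 0.23 and -0.21 over the members called higher, 0.14 and -0.17 over those called lower, 0.11 and -0.054 over all members, and -0.014 and 0.0057 over all 22180 genes. The fibroblast markers averaged 8.49, 8.25 and 8.07 on Pax7-GFP replicates 1, 2 and 3, and the muscle progenitor genes 10.77, 10.55 and 10.73. The SD among Pax7-GFP arrays was larger than that among ES arrays in 57 of 66 members, or 86.4%, and in 72.0% of all genes. The median SDs were 0.22 in Pax7-GFP and 0.10 in ES arrays over the members, and 0.14 in Pax7-GFP and 0.084 in ES arrays over all genes.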
